A study of Mus musculus with 12 samples.

Results

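The zinc-dependent histone deacetylases are described here in the nucleus accumbens of adult mice whose mothers had received an immune stimulus during pregnancy. The 10 members are Hdac1, Hdac2, Hdac3 and Hdac8 of class I, Hdac4, Hdac5, Hdac7 and Hdac9 of class IIa, Hdac6 of class IIb and Hdac11 of class IV, taken by their symbols. All 10 had a row of the array table that carried their symbol alone, out of 18820 gene symbols in 21218 such rows. A row is the summary of 1 probe set. Hdac1 had 2 rows and the brighter was used, and each other member had 1. Pregnant C57BL/6 mice were injected intravenously on gestation day 17 with saline or with poly(I:C) at 5 mg/kg. Poly(I:C) is a double-stranded RNA made in vitro that sets off an antiviral response. The offspring, of strain C57BL/6N per the labels, went through cognitive and behavioural testing and were dissected at 12 weeks of age, and core and shell of the accumbens were collected jointly. Each group had 6 arrays, called control 1 to 6 (saline) and poly(I:C) 1 to 6; litter and sex were not used here. Values are log2 intensities after robust multi-array averaging (RMA), so a difference of 1 is a doubling.

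Histone deacetylases remove acetyl groups from lysines, on histone tails and on many other proteins, and the loss of these groups generally goes with tighter chromatin and lower transcription. The class I enzymes act mainly in the nucleus, and Hdac1, Hdac2 and Hdac3 do so inside corepressor complexes. Class IIa enzymes have weak catalytic activity of their own, bind MEF2 transcription factors, and move between nucleus and cytoplasm as calcium-dependent and other kinases phosphorylate them and 14-3-3 proteins hold them. Hdac6 is mainly a cytoplasmic tubulin deacetylase, and Hdac11 is the sole class IV enzyme. In the accumbens, Hdac5 and other members have been studied for their part in responses to cocaine and stress.

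The tissue carried markers of the striatum, which do not single out the accumbens within it. Markers of medium spiny neurons, the projection neurons of the striatum, averaged 9.14 ± 0.20 over the control arrays and 9.21 ± 0.15 over the exposed arrays (SD, n = 6 each; 10 of 12 listed genes measured). Array medians ran from 4.78 to 4.85 over 35556 rows, and 0 pairs of arrays were identical. Arrays differed in the levels of marker genes of neighbouring tissue and of glia. The mean of the choroid plexus genes (8 of 9 measured, 8 lower in value) ran from 4.76 to 7.34 in controls, with the highest values in control 4 and control 6, and from 4.57 to 4.82 in poly(I:C) offspring. The mean of the cortical neuron genes (8 of 9 measured, 7 higher in value) ran from 5.32 to 6.48 and from 5.83 to 6.65. The mean of the mature oligodendrocyte genes (11 of 12 measured) ran from 7.77 to 8.36 and from 7.63 to 7.79, and all 11 had lower means in the exposed group. Their part in the results was not tested, except where a fit with a marker mean as covariate is given. In whole tissue, fewer cells of a type and less RNA per cell cannot be told apart.

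No histone deacetylase passed the adjusted threshold of 0.05 between poly(I:C) and control offspring (0 of 10, limma with Benjamini-Hochberg adjustment over 21218 rows). Over all rows, 13 passed, which is 0.0613%. Adjusted p-values of the members ran from 0.268 to 0.994. At an unadjusted p under 0.05 there were 2 of 10 members, Hdac2 on the lower side and Hdac3 on the higher side, against 14.4% of all rows (7.83% higher, 6.57% lower). For 0 of 10 members did the groups separate without overlap, against 1.13% of all rows (0.603% higher, 0.523% lower). In value 8 members were higher and 2 lower in the exposed group, where 50.9% of all rows were higher. The median difference was 0.018 over the members and 0.0016 over all rows. The limits of the 10 95% intervals lay between -0.20 and 0.24 on the log2 scale, that is between 13.0% lower and 18.1% higher.

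**Figure D1:**
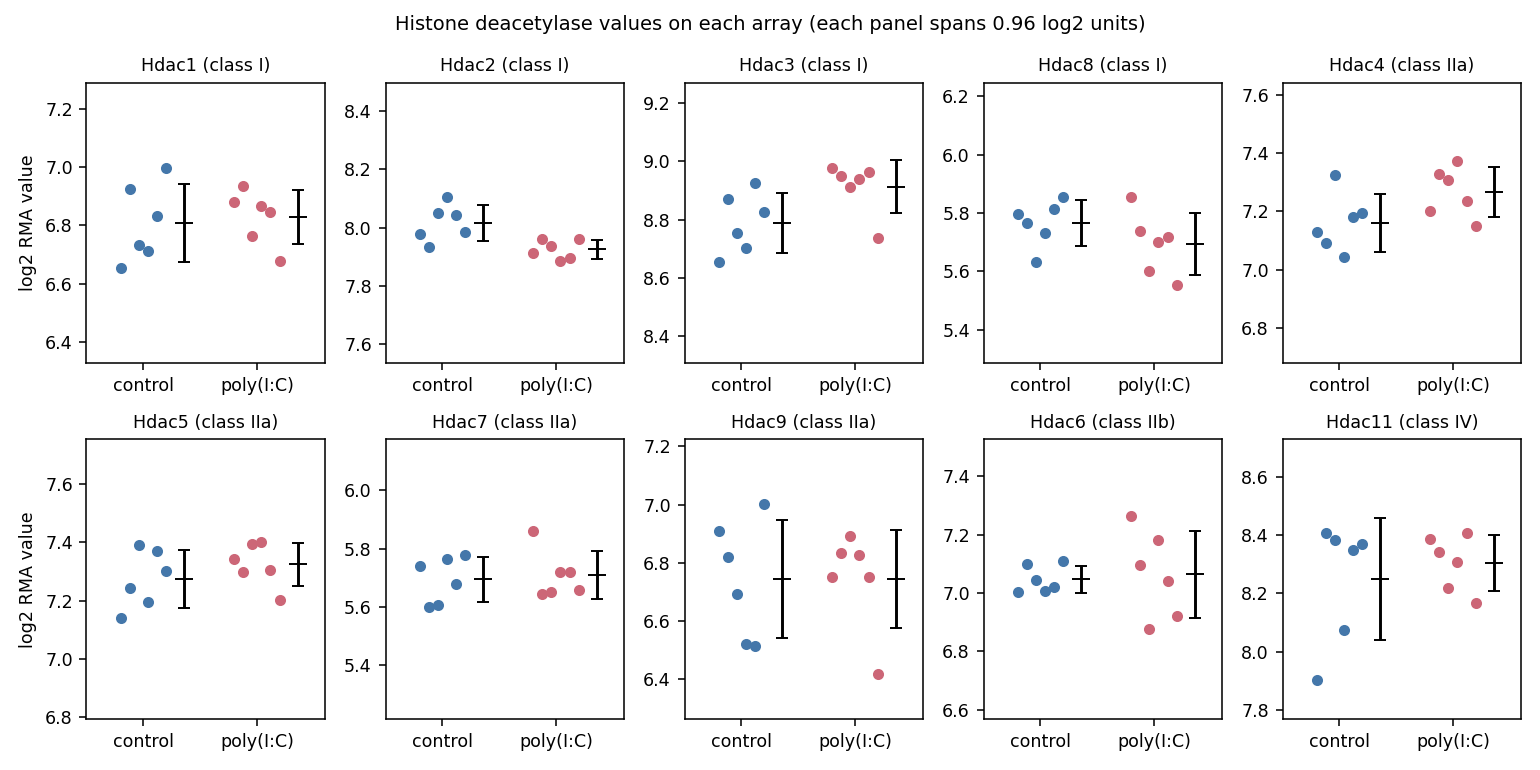
Each panel shows 1 histone deacetylase, with the log2 RMA value on the vertical axis, 1 point per array (blue control, red poly(I:C), replicates 1 to 6 from left to right) and the group mean ± SD in black. All panels span the same range of log2 units. The groups overlap in every panel, with Hdac2 of poly(I:C) offspring in a narrow band from 7.89 to 7.96 and Hdac3 with 1 low array at 8.74.

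Within class I, whose members carry most of the nuclear deacetylase activity, the differences ran in both directions, with 2 members higher and 2 lower in value and a class median of -0.026. Hdac2, which sits in the Sin3, NuRD and CoREST complexes and has been linked to the repression of synaptic plasticity genes, had a lowest, median and highest value of 7.93, 8.01 and 8.11 in controls and of 7.89, 7.92 and 7.96 in poly(I:C) offspring. All 6 poly(I:C) arrays lay below the control mean and 3 lay below every control array. The means were 8.02 ± 0.06 and 7.93 ± 0.03 (SD, n = 6 each), which differ by -0.090 on the log2 scale (95% interval -0.17 to -0.015), or 6.1% lower. The unadjusted limma p was 0.0220 and the adjusted p 0.268. An exact two-sided permutation test over the 924 splits of the 12 arrays gave an unadjusted p of 0.0130, where the smallest possible is 0.00216. Without control 4 and control 6 the difference was -0.076 (limma adjusted p = 0.633), and its unadjusted p no longer passed 0.05.

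Hdac3, the catalytic subunit of the NCoR/SMRT corepressor complex, ran from 8.65 to 8.93 with a median of 8.79 in controls. In poly(I:C) offspring it ran from 8.74 to 8.98 with a median of 8.95. Of the poly(I:C) arrays 4 lay above every control array, while poly(I:C) 6 was at 8.74, below the control mean. The means were 8.79 ± 0.10 and 8.91 ± 0.09, which differ by 0.12 on the log2 scale (95% interval 0.0095 to 0.24), or 9.0% higher (limma adjusted p = 0.312). The unadjusted limma p was 0.0358, and the exact permutation test gave 0.0519. The difference was 0.16 without poly(I:C) 6 (limma adjusted p = 0.134) and 0.11 without control 4 and control 6 (limma adjusted p = 0.663).

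Hdac1, the close relative of Hdac2 that shares its complexes, had a lowest, median and highest value of 6.65, 6.78 and 7.00 in controls and of 6.68, 6.86 and 6.93 in poly(I:C) offspring, so that the poly(I:C) arrays all lay inside the control range. The log2 difference was 0.019 (95% interval -0.11 to 0.15, limma adjusted p = 0.926). The dimmer row of Hdac1 gave 0.034 (95% interval -0.12 to 0.19), so both rows had intervals on both sides of 0. Hdac8, which deacetylates the cohesin subunit Smc3 and is encoded on the X chromosome, ran from 5.63 to 5.85 with a median of 5.78 for controls and from 5.55 to 5.85 with a median of 5.71 in poly(I:C) offspring. Its log2 difference was -0.072 (95% interval -0.18 to 0.041, limma adjusted p = 0.559), and 2 poly(I:C) arrays lay below every control array.

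**Figure D2:**
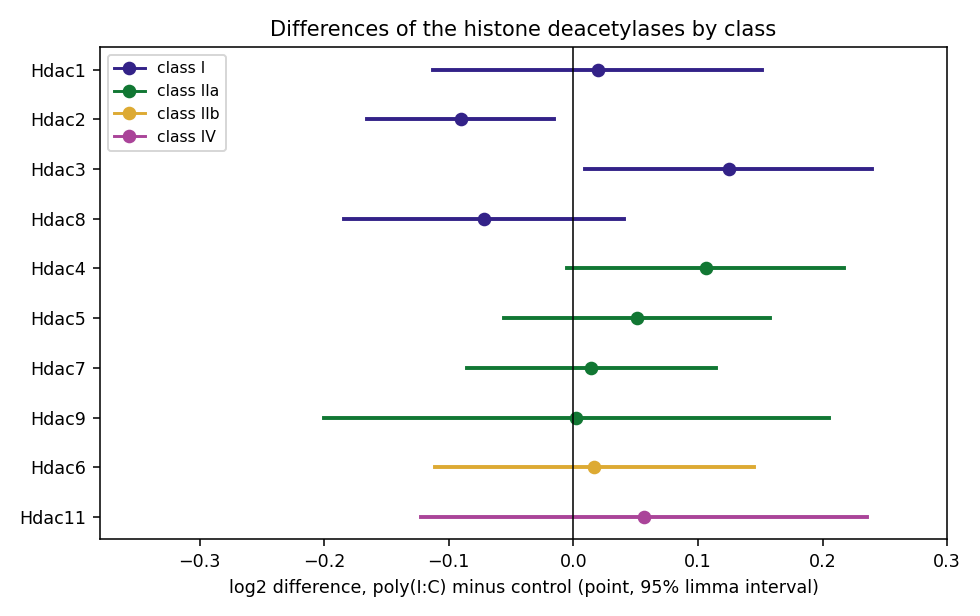
The log2 difference of each histone deacetylase, poly(I:C) minus control, is on the horizontal axis as a point with its 95% limma interval, coloured by deacetylase class. The intervals of Hdac2 (below 0) and Hdac3 (above 0) do not reach 0, those of the other 8 members hold 0, and none extends beyond -0.20 or 0.24.

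The 4 class IIa members were all higher in value, with a class median of 0.033, and 0 of 4 reached an unadjusted p under 0.05 (14.4% of all rows). Hdac7 and Hdac9 kept that direction in 21 and 16 of 25 alternative fits. Some of these fits change only the variance, the rows tested or the adjustment, and cannot change a difference. Hdac4, a corepressor of MEF2 factors that is abundant in brain, ran from 7.04 to 7.33 with a median of 7.15 for controls and from 7.15 to 7.37 with a median of 7.27 in poly(I:C) offspring. The means were 7.16 ± 0.10 and 7.27 ± 0.09, which differ by 0.11 on the log2 scale (95% interval -0.0048 to 0.22, limma adjusted p = 0.369). With the marker means of cortex, septum and choroid plexus as covariates (the 3 tissue means) it was 0.032 (limma adjusted p = 0.926). Hdac5, whose movement between nucleus and cytoplasm responds to cocaine and cAMP signals in striatal neurons, ran from 7.14 to 7.39 with a median of 7.27 for controls and from 7.20 to 7.40 with a median of 7.32 in poly(I:C) offspring. Its log2 difference was 0.051 (95% interval -0.056 to 0.16, limma adjusted p = 0.680).

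Hdac7, known mostly from vascular and lymphoid cells, was at 5.60, 5.71 and 5.78 (lowest, median, highest) in controls and at 5.64, 5.69 and 5.86 in poly(I:C) offspring, and its log2 difference was 0.014 (95% interval -0.086 to 0.11). Hdac9, a class IIa enzyme with a truncated splice form that lacks the catalytic domain, was at 6.51, 6.76 and 7.00 in controls and at 6.42, 6.79 and 6.89 in poly(I:C) offspring. It had the smallest difference of all members, 0.0023, and the widest interval, -0.20 to 0.21. The splice forms of Hdac9 cannot be told apart in a single summary value per gene.

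Hdac4 and Hdac5 varied together from array to array (Pearson r = 0.77, Spearman rho = 0.76 over 12 arrays with group means removed). The pairs Hdac3 with Hdac11 (r = 0.80) and Hdac1 with Hdac3 (r = 0.79) had higher values. The 250 bases ahead of an annotated RefSeq start of Hdac4 and of Hdac5 (GRCm38.p6) are shown, and their part in the correlation was not tested. Hdac4 lies at chr1:92180342-92180591 and Hdac5 at chr11:102230173-102230422, both on the minus strand, and each is written 5′ to 3′ in the direction of transcription. Capitals mark the GC box GGGCGG, the core of an Sp1 site, and the short core TGACG of a cAMP response element, on either strand.
Hdac4: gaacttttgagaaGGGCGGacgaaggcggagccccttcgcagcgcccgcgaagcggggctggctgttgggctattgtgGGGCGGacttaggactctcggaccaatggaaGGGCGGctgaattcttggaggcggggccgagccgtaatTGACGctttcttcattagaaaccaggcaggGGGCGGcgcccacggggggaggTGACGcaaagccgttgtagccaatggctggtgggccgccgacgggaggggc
Hdac5: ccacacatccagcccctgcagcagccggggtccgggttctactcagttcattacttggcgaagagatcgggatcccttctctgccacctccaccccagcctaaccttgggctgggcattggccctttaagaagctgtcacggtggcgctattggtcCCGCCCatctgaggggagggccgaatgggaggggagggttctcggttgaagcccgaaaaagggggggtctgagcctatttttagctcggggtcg
The Hdac4 window held 4 GC boxes, 2 TGACG cores and 23 CpG dinucleotides, and the Hdac5 window held 1 GC box, 0 TGACG cores and 12 CpG dinucleotides. Each also held 2 copies of CCAAT, on the printed strand in Hdac4 and on the other strand, where it reads ATTGG, in Hdac5, and 0 bases lay in more than 1 of these motifs. Of 32851 such windows in the table, 32.7% held a GC box, 17.8% a TGACG and 33.9% a CCAAT, and the median window had 6 CpG dinucleotides. Windows were given for 8 members (12 windows in all, 4 for Hdac7 and 2 for Hdac9), and of these 6 held a GC box. The Hdac2 window had 27 CpG dinucleotides and a GC content of 68.8%, while the 2 windows of Hdac9 had 0 and 2 and GC contents of 44.4% and 43.6%. Windows of Hdac1 and Hdac3 were not used here. A motif match describes the letters of the window and is not evidence of a bound factor.

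Hdac6, the class IIb enzyme that deacetylates tubulin and cortactin and binds ubiquitinated cargo, was at 7.00, 7.03 and 7.11 (lowest, median, highest) in controls and at 6.88, 7.07 and 7.26 in poly(I:C) offspring. The poly(I:C) arrays spread on both sides of the control range, 2 above it and 2 below it. The means were 7.05 ± 0.05 and 7.06 ± 0.15 (SD, n = 6 each), which differ by 0.017 on the log2 scale (95% interval -0.11 to 0.14, limma adjusted p = 0.935). Hdac10, the other class IIb enzyme and a polyamine deacetylase, is not among the 10 members and had a log2 difference of 0.036 (95% interval -0.083 to 0.16).

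Hdac11, the class IV enzyme, which is known from oligodendrocytes and neurons and removes fatty acyl groups from lysines, ran from 7.90 to 8.41 with a median of 8.36 in controls. In poly(I:C) offspring it ran from 8.17 to 8.41 with a median of 8.32. Control 1 and control 4, at 7.90 and 8.07, lay below all poly(I:C) arrays. The log2 difference was 0.057 (95% interval -0.12 to 0.24, limma adjusted p = 0.804), and without control 1 it was -0.012. The oligodendrocyte mean was 8.06 ± 0.24 in controls against 7.69 ± 0.06 after exposure. Over the 12 arrays with group means removed, Hdac11 had r = 0.60 and rho = 0.50 with it. This pooled value rests mostly on the controls, where the oligodendrocyte mean varied more. Among exposed arrays the lowest Hdac11, 8.17 in poly(I:C) 6, stood beside an oligodendrocyte mean of 7.72. The highest, 8.41 in poly(I:C) 5, stood beside 7.69. The group means of Hdac11 and its medians differed in opposite directions.

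The members differed in how much they varied between mice of the same group. The pooled within-group SD was 0.049 for Hdac2, lower than that of all but 3.0% of the 1000 rows nearest to it in level. It was 0.19 for Hdac9, above 89.8% of its nearest rows, and 0.16 for Hdac11, above 84.5%. The remaining 7 lay between 0.080 for Hdac7 and 0.11 for Hdac1, around the median of 0.087 over all rows. The SD of Hdac9 was 3.77 times that of Hdac2.

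Between arrays of the same group, members tended to move with each other, apart from Hdac2 and in part Hdac7. Over 12 arrays with group means removed, all 9 correlations of Hdac2 with other members were below 0, the lowest with Hdac9 (r = -0.63, rho = -0.59). Those with Hdac5, Hdac7 and Hdac4 were near 0 (r = -0.02, -0.04 and -0.05). Of the 36 correlations that did not involve Hdac2, 32 were above 0. Those below 0 were Hdac7 with Hdac4, Hdac11 and Hdac5 (r = -0.33, -0.18 and -0.15) and Hdac8 with Hdac4 (r = -0.12). The same counts were not made for pairs of other genes. The highest correlations were those of Hdac3 with Hdac11 (r = 0.80, rho = 0.66), Hdac1 with Hdac3 (r = 0.79, rho = 0.76), Hdac4 with Hdac5 and Hdac1 with Hdac11 (r = 0.76, rho = 0.66). These values are descriptions over arrays that share dissection, RNA quality and normalization. The array of poly(I:C) 6 was the lowest of its group for 7 of 10 members and the highest for Hdac2, and control 1 was the lowest control for 5 members.

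Several members varied with the mean level of a marker list. The correlations named here were picked from those of every member with every marker list. Such correlations were not computed for other genes. Hdac1, Hdac3 and Hdac11 followed the mean of 8 astrocyte markers (r = 0.88, 0.80 and 0.78, rho = 0.88, 0.80 and 0.80, 12 arrays, group means removed), and Hdac1 also followed the mean of 11 oligodendrocyte markers (r = 0.80, rho = 0.73) and that of 8 septal and pallidal neuron markers (r = 0.79, rho = 0.66). Hdac2 ran against the astrocyte mean (r = -0.65, rho = -0.55) and with the medium spiny neuron mean (r = 0.60, rho = 0.67). Hdac9 (r = -0.79, rho = -0.77) and Hdac8 (r = -0.68, rho = -0.59) ran against the medium spiny neuron mean. Hdac7 ran against the endothelial and pericyte mean (r = -0.69, rho = -0.76) and Hdac9 against the microglia mean (r = -0.67, rho = -0.59). The astrocyte mean stood at 8.09 ± 0.17 for control arrays and 8.11 ± 0.13 for exposed arrays, with ranges from 7.84 to 8.29 and from 7.92 to 8.25, and 4 of its 8 genes were higher in value. With the astrocyte mean as a covariate, an alternative chosen after these correlations were seen, the difference of Hdac3 was 0.11 (95% interval 0.030 to 0.20, limma adjusted p = 0.173) and that of Hdac2 was -0.086 (95% interval -0.15 to -0.017, limma adjusted p = 0.204).

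The oligodendrocyte mean differed between the groups, and as a covariate it moved the values of Hdac1, Hdac3 and Hdac11 most. With it the log2 difference of Hdac1 was 0.22 (95% interval 0.073 to 0.36), that of Hdac3 was 0.23 (95% interval 0.063 to 0.39) and that of Hdac11 was 0.27 (95% interval 0.034 to 0.50), while Hdac2 was at -0.12. Their limma adjusted p-values were 0.213, 0.229, 0.286 and 0.324, so 4 members had an unadjusted p under 0.05, where 14.4% of all rows did, and 0 members and 0 rows passed after adjustment. Because the covariate itself differs between the groups, these values compare poly(I:C) and control offspring at an equal oligodendrocyte mean. Only control 1 (7.77), however, lay inside the poly(I:C) range of that mean and only poly(I:C) 2 (7.79) inside the control range. The mean had an SD of 0.24 over controls and 0.06 over exposed arrays. The fitted slopes therefore rest mainly on the controls, and whether they hold in exposed offspring was not tested.

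**Figure D3:**
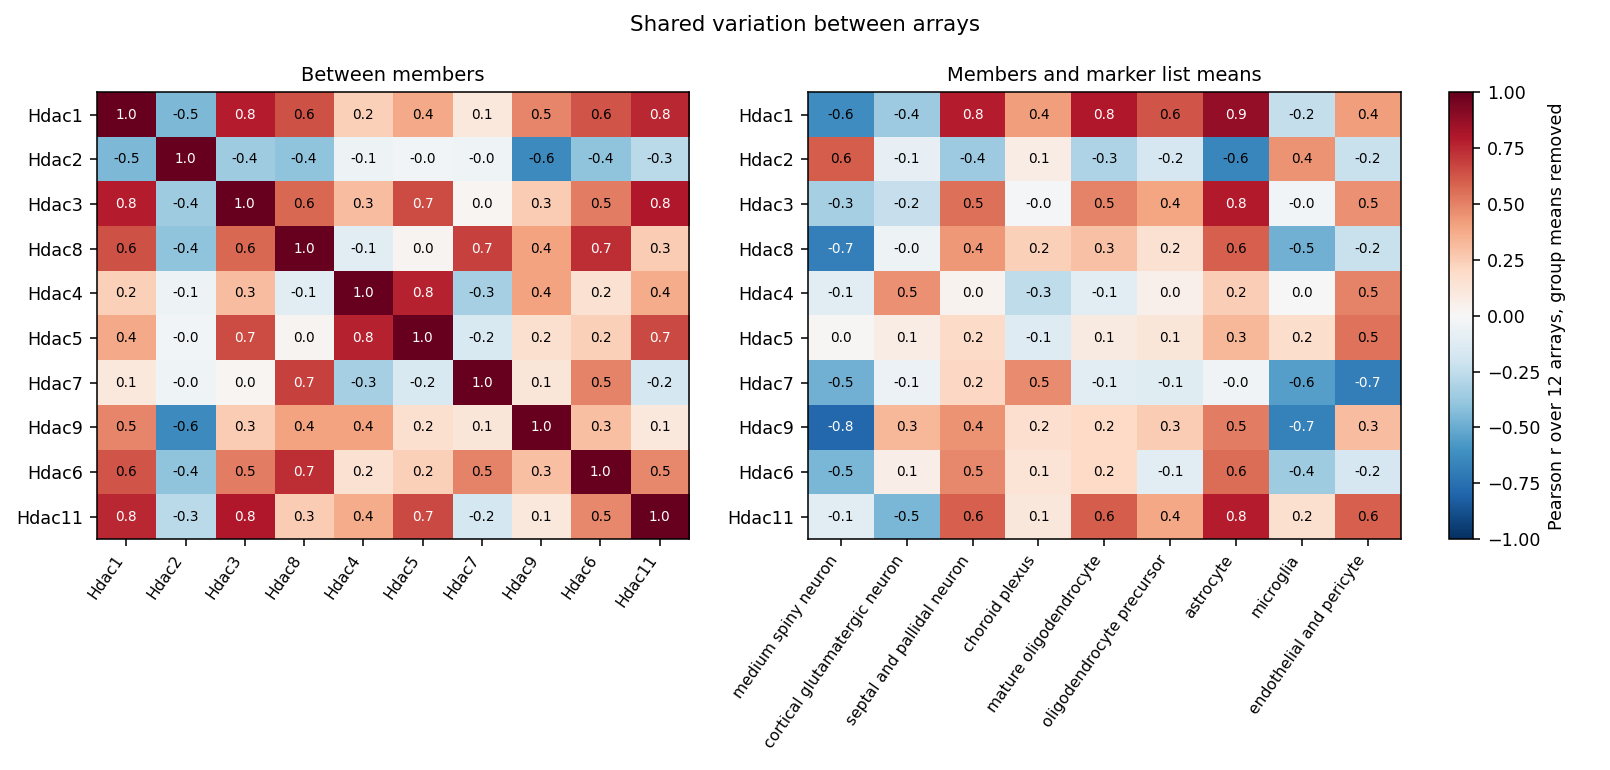
Pearson correlations over the 12 arrays, with each group's mean removed, are shown by colour and number between the members (left) and between the members and the mean of each marker list (right). The Hdac2 row is below 0 against all other members, while Hdac1, Hdac3 and Hdac11 correlate with each other at 0.76 to 0.80 and have values from 0.78 to 0.88 with the astrocyte mean.

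The rows most like Hdac2, the member with the smallest unadjusted p, were ranked by Pearson correlation over the 12 arrays with group means removed, among named genes above the median level of 5.47. They were Bcorl1, a corepressor related to the BCL6 partner BCOR (r = 0.91, rho = 0.87), Herpud2 (r = 0.87, rho = 0.87), Cdk8, the kinase of the Mediator complex (r = 0.86, rho = 0.86), the zinc finger gene Patz1 (r = 0.86, rho = 0.84) and Slc41a1, a magnesium transporter gene (r = 0.85, rho = 0.83). Their own log2 differences were 0.031, -0.070, -0.11, 0.075 and 0.037, with limma adjusted p-values from 0.348 to 0.873. The correlations were picked as the highest of a search over those named genes with 12 arrays. The same search was not made for another gene, and shared regulation was not tested.

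Around the deacetylases, 97 of 108 listed genes of their complexes, partners and opposing enzymes had a row with 1 symbol. Of these 0 passed the adjusted threshold in either direction (limma, 0.0613% of all rows). At an unadjusted p under 0.05, 12 were higher and 3 lower, which is 15.5% against 14.4% of all rows. For 0 of them did the groups separate without overlap, against 1.13% of all rows. In value 62 were higher and 35 lower, with a median of 0.025, where 50.9% of all rows were higher with a median of 0.0016. Without control 4 and control 6 the unadjusted counts were 6 higher and 2 lower, where 8.33% of all rows had such a p. With the 3 tissue means as covariates they were 5 and 4 (9.57% of all rows). The list median was 0.017 without those controls (0.0021 over all rows) and -0.00085 with the tissue means (-0.0042 over all rows).

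Among the corepressor complexes, the smallest p was that of Tbl1xr1, which encodes a subunit of the NCoR/SMRT complex that houses Hdac3. It ran from 7.53 to 7.78 with a median of 7.65 for controls and from 7.75 to 7.95 with a median of 7.85 in poly(I:C) offspring, and 5 poly(I:C) arrays lay above every control array. Its log2 difference was 0.19 (95% interval 0.091 to 0.29, limma adjusted p = 0.109), against -0.060 for its relative Tbl1x and -0.049 for Gps2. It was 0.15 without control 4 and control 6 (limma adjusted p = 0.400). Of 9 CoREST genes, whose complex joins Hdac1 and Hdac2 to the demethylase Kdm1a, Zmym3 reached an unadjusted p under 0.05 with a log2 difference of 0.16 (limma adjusted p = 0.253), and Rcor2 and Zmym2 stood at 0.097 and 0.065. Of 13 Sin3 complex genes 1 did so, the chromatin reader Ing2 at 0.12, with Sap30 at 0.12 and Sin3b at 0.085. Of 11 NuRD genes 0 did, with Gatad2a at 0.081, Mbd3 at 0.088 and Gatad2b at 0.086. Over all rows 14.4% had such a p. The 2 MiDAC genes, Trerf1 and Dnttip1, were at 0.077 and -0.045.

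The partners of the class IIa enzymes gave scattered values. Mef2c, a MEF2 factor that class IIa enzymes repress, ran from 8.42 to 9.20 with a median of 8.69 for controls and from 8.91 to 9.25 with a median of 9.16 in poly(I:C) offspring. Its log2 difference was 0.38 (95% interval 0.12 to 0.64, limma adjusted p = 0.190), and it was 0.067 with the 3 tissue means as covariates and 0.045 with the oligodendrocyte mean. Mef2a and Mef2d were at 0.061 and -0.017. Of 13 kinases that can phosphorylate class IIa enzymes, 1 was higher and 1 lower at an unadjusted p under 0.05, Camk2a at 0.093 and the protein kinase D gene Prkd3 at -0.20, with Camk1g at -0.16. Of 7 genes for 14-3-3 proteins, which retain phosphorylated class IIa enzymes in the cytoplasm, Ywhae (0.091) and Ywhah (0.13) reached an unadjusted p under 0.05, and Ywhaz was at 0.028. For these counts of kinases and 14-3-3 genes, the shares over all rows were 7.83% higher and 6.57% lower.

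Among enzymes that add acetyl groups, 4 of 11 were higher and 1 lower at an unadjusted p under 0.05. Over all rows 7.83% were higher and 6.57% lower at such a p. Kat2b, the acetyltransferase PCAF, was the lower one, from 5.30 to 5.64 with a median of 5.51 for controls and from 5.16 to 5.37 with a median of 5.25 in poly(I:C) offspring. Its log2 difference was -0.23 (95% interval -0.36 to -0.093, limma adjusted p = 0.153), and 5 poly(I:C) arrays lay below every control array. With the oligodendrocyte mean as a covariate it was -0.0021. Kat6b and Kat2a, a relative of Kat2b, were at 0.10 and 0.11. Without control 4 and control 6, 0 acetyltransferase genes were higher and 1 lower at an unadjusted p under 0.05. In that fit 8.33% of all rows had such a p in either direction. Of 3 BET genes, readers of acetylated lysines, Brd2 stood at 0.11 (limma adjusted p = 0.156), Brdt at -0.046 and Brd3 at 0.0038.

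The remaining lists concern the sirtuins and the cytoplasmic and cohesin partners. The 7 sirtuins, the NAD-dependent class III deacetylases, gave 0 genes at an unadjusted p under 0.05 (14.4% of all rows). They gave 6 higher values (50.9% of all rows), with Sirt4 at 0.15, Sirt3 at 0.12 and Sirt7 at 0.081. The 6 genes around Hdac6 gave 0 at an unadjusted p under 0.05, with the ubiquitin-binding autophagy receptor gene Sqstm1 at -0.069, Plaa at 0.083 and Vcp at 0.066. Of 8 cohesin genes around Hdac8, 1 was lower at an unadjusted p under 0.05 (6.57% of all rows) and 0 were higher (7.83%). The lower one was Esco1, which acetylates the Smc3 residues that Hdac8 deacetylates (log2 difference -0.12, limma adjusted p = 0.215). Rad21 stood at -0.080 and Stag1 at 0.062. With the oligodendrocyte mean as a covariate, 3 cohesin genes were higher and 0 lower at such a p (14.4% of all rows in either direction). The list median was then 0.042, against -0.029 without the covariate.

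**Figure D4:**
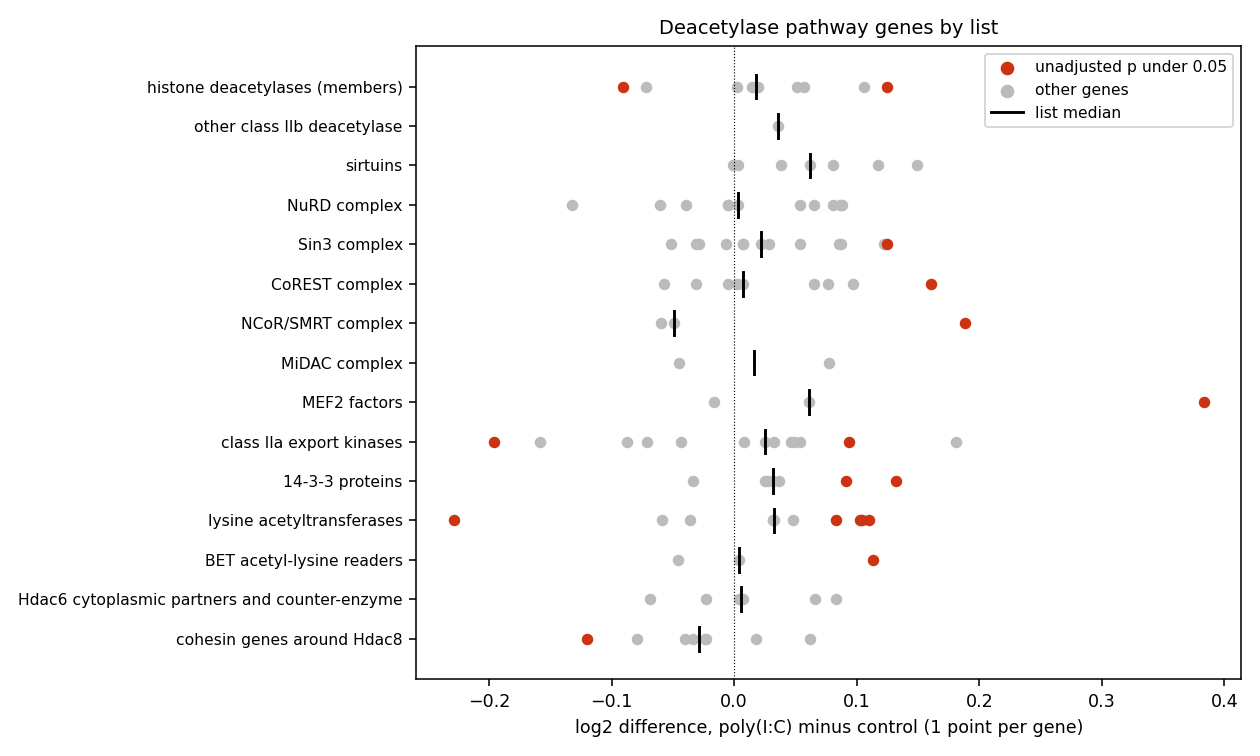
Each point is 1 gene, with its log2 difference (poly(I:C) minus control) on the horizontal axis and its list on the vertical axis. Red points have an unadjusted limma p under 0.05 and black bars are list medians. Mef2c at 0.38 and Kat2b at -0.23 lie at the ends of the range.

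Under 25 alternative fits 0 members passed the adjusted threshold. Hdac2 stayed between -0.12 and -0.066, and Hdac3 between 0.098 and 0.23. Hdac4, Hdac5 and Hdac8 also kept their direction, whereas Hdac1, Hdac6, Hdac7, Hdac9 and Hdac11 changed sign in at least 1 fit. Fits that change only the variance, the rows tested or the adjustment cannot change a sign.

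**Figure D5:**
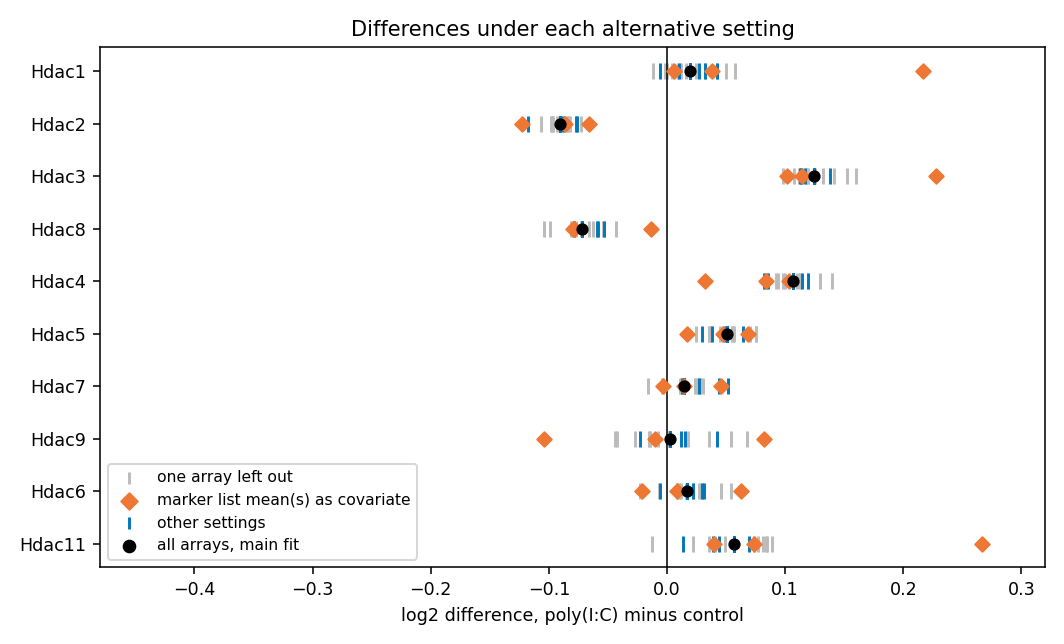
For each histone deacetylase the log2 difference (poly(I:C) minus control, horizontal axis) is shown with all arrays (black point), with 1 array left out (grey ticks), with marker list means as covariates (orange diamonds) and under other settings (blue ticks). Hdac2 and Hdac8 stay below 0 and Hdac3, Hdac4 and Hdac5 above it, and the points far to the right at 0.22, 0.23 and 0.27 for Hdac1, Hdac3 and Hdac11 are those with the oligodendrocyte mean as a covariate.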

How the data were processed

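Total RNA (250 ng per array) of 12 mice was run on Affymetrix Mouse Gene 1.1 ST arrays, per the labels' protocols. The authors deposited 1 table of log2 values, made with RMA and Partek 6.6 per the submitters' processing notes. Their settings were not given in the sources used here. Rows were named from the platform annotation: 21218 had 1 gene symbol, 1881 several and 12457 none. All rows with 1 symbol were fitted with limma 3.58.1 (R 4.3.3, lmFit and eBayes, group as the only term), two-sided, with Benjamini-Hochberg adjustment over those rows. For several rows of a symbol the row with the highest mean was used. The fit was tested on simulated data. The number of arrays limits the precision. Litter, sex, strip and day are not in the labels, so p-values take the 12 mice as independent. Same-numbered arrays of the 2 groups correlated from -0.20 to 0.27 in their deviations, so the numbers were not taken as pairs.

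The members and the lists were chosen with earlier results of these data known. Named genes are the members, up to 3 genes per pathway list by unadjusted p, and the 5 rows most like the member with the smallest p. Alternatives were 2 normalizations, a filter on dim rows, 2 variance models, array weights, a replicate block, marker means as covariates, arrays left out, other rows and an exact permutation test. Of the listed genes, 11 had no row with 1 symbol.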

Additional observations from a re-analysis of the deposited data

Results flagged for a closer look

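Of 20 groups of 6 arrays (10 members in 2 groups), 3 held an array far from the rest by Dixon's ratio at the 95% level, where chance gives about 1 in 20 groups. Hdac3 in poly(I:C) 6 was at 8.74, with the next poly(I:C) array at 8.91. Hdac9 in poly(I:C) 6 was at 6.42, with the next at 6.75. Hdac7 in poly(I:C) 1 was at 5.86, with the next at 5.72. Without poly(I:C) 6 the log2 differences of Hdac3 and Hdac9 were 0.16 and 0.067 (limma adjusted p = 0.134 for Hdac3 and limma adjusted p = 0.740 for Hdac9), and without poly(I:C) 1 that of Hdac7 was -0.016. In the array poly(I:C) 6 the mean of the medium spiny neuron markers was the highest of its group at 9.48, and that of the astrocyte markers was the lowest at 7.92. Their part in the low values was not tested.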

How the results depend on the processing

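The number of histone deacetylases past the adjusted threshold was 0 under each of the 25 fits, of which 12 called 0 rows in the whole table. The number at an unadjusted p under 0.05 was 2 with all arrays (14.4% of all rows) and 4 with the oligodendrocyte mean (14.4%). It was 0 with the replicate block (13.2%), with the 3 tissue means (9.57%) and without control 4 and control 6 (8.33%). By the exact permutation test, run for the members only, it was 1. With 1 array left out it ran from 0 (without control 4) to 3 (without poly(I:C) 6). It was 1 without control 1 and without each of poly(I:C) 1, 2, 3, 4 and 5. Of 21218 rows, 3056 had such a p with all arrays, 2419 without control 4 and 3149 without control 1. Without poly(I:C) 1, 2, 3 and 4 these rows numbered 2735, 2568, 2645 and 2344. The row numbers without poly(I:C) 5 and 6 are not given here. With the oligodendrocyte mean the class I median was 0.10 in place of -0.026; with 1 array left out it ran from -0.041 to 0.0030. Sign changes came from members whose difference with all arrays lay between 0.0023 and 0.057. With quantile normalization Hdac1, Hdac6 and Hdac9 were at -0.0059, -0.0058 and -0.023, with the 3 tissue means Hdac6 and Hdac9 at -0.021 and -0.10, with the oligodendrocyte mean Hdac7 at -0.0033, and with the astrocyte mean Hdac9 at -0.010. With 1 array left out Hdac1 ran from -0.012 to 0.057, Hdac6 from -0.023 to 0.054, Hdac7 from -0.016 to 0.031, Hdac9 from -0.044 to 0.067 and Hdac11 from -0.012 to 0.089. The replicate block left every difference as it was and called 0 rows over the table, against 13 without it; 1 of 6 controls correlated best with its own number. The causes of these changes were not tested.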
